A study of Pardosa pseudoannulata with 16 samples.

Results

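Among the expressed transcripts of the wolf spider Pardosa pseudoannulata, 100 sequence clusters varied most nearly as the mirror image of Cluster-9253.48377, an abundant transcript of 780 bases. They were high in UL, low in UH and between these in Ck and UM. They were chosen by their Pearson correlation (r) to that reference cluster over all 16 libraries, as the 100 lowest of the 36003 clusters that reached 1 FPKM or more in 4 or more libraries. The full table lists 136360 clusters. FPKM counts fragments relative to the length of the cluster in kilobases and to the mapped fragments of the library, and correlations and differences used log2(FPKM + 1). Because measured values chose these 100 clusters, their levels and correlations are given as a description.

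The libraries were made from whole spiders, with n = 4 per group, and the groups carry the names Ck, UL, UM and UH. All of them, Ck included, bear the same treatment label, urea. The study's design names adult spiders collected in rice fields and 3 soil concentrations of urea (0, 200 and 400 mg/kg) over 30 days, but it does not match 3 concentrations to 4 groups, so no concentration or order was assigned. No sex, age in days or number of spiders per library is given in the sources used here. Whether replicates are separate animals is not stated, so the spread between libraries may be technical.

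Wolf spiders hunt on foot and take insects in rice fields, where urea is spread as a nitrogen fertiliser. In a spider without a reference genome at hand, reads are usually assembled into contigs, and contigs that share reads are grouped into clusters that stand in for genes. Expression values of this kind are relative: a transcript can take a smaller share of a library because less of it was made, because the tissue that makes it shrank, or because other transcripts took more. Clusters carry an ID and a length, with no gene, protein or position beside them. No function, pathway or chromosome is therefore given to any of them, and no sequence was at hand to print.

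The reference cluster varied by a ratio of 35.3 between its highest and lowest library. It had 8803, 321, 2218 and 2081 FPKM in Ck replicates 1 to 4, and 610, 701, 421 and 511 FPKM in UL. The UM libraries had 6939, 4276, 6588 and 3543 FPKM and the UH libraries 11332, 8556, 8039 and 9963 FPKM. The UH values lay above the UM values and the UM values above the UL values, with no overlap, while the Ck libraries ran from below every UL library to above every UM library. Ck replicate 1 lay within the UH range.

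Cluster-9253.52511 (3402 bases) had the lowest correlation, with r = -0.966. It had 27.95, 57.24, 36.29 and 33.95 FPKM in Ck and 44.58, 42.64, 45.36 and 56.66 in UL, and then 25.66, 32.15, 29.82 and 28.23 in UM and 21.9, 25.19, 25.01 and 24.23 in UH. Every UL library lay above every UM and UH library, and the highest and lowest Ck libraries were the ones with the least and the most of the reference cluster. The log2 difference between UH and UL was -0.94 ± 0.18 (SE from limma), and the UL mean was 1.96 times the UH mean.

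The next clusters in rank repeated this shape with smaller steps. Cluster-9253.48366 (3148 bases, r = -0.959) had 29.77, 44.52, 32.92 and 35.71 FPKM in Ck and 40.04, 43.37, 39.44 and 43.59 in UL. It had 32.72, 33.99, 29.79 and 32.48 FPKM in UM and 28.85, 29.31, 29.19 and 30.4 in UH, where the libraries differed by little. The UL and UH values were apart by more than the range within either group, although the ratio of their means was 1.41.

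For Cluster-9253.50295 (3573 bases, r = -0.953) the means were 8.21 ± 1.76 FPKM (Ck), 9.86 ± 0.628 FPKM (UL), 6.34 ± 0.726 FPKM (UM) and 5.66 ± 0.473 FPKM (UH), each with its SD (n = 4). Its UM libraries (5.48 to 7.17 FPKM) overlapped its UH libraries (5.04 to 6.19 FPKM), and both lay below all UL libraries (8.97 to 10.44 FPKM). Cluster-9253.48282 (5114 bases, r = -0.945) had 28.6 ± 5.36 FPKM (Ck), 32.9 ± 3.69 FPKM (UL), 23.3 ± 1.27 FPKM (UM) and 21.2 ± 0.844 FPKM (UH), each with its SD (n = 4). In UL, 3 of its libraries had 30.56 to 31.42 FPKM and replicate 4 had 38.43 FPKM.

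The most abundant of the 100 were Cluster-9253.47979 (2643 bases) and Cluster-9253.47008 (2725 bases). The first had 216.65, 290.71, 229.53 and 257.62 FPKM in Ck and 277.71, 288.43, 260.76 and 331.31 in UL, and then 231.1, 246.23, 214.02 and 223.75 in UM and 195.26, 204.29, 206.02 and 232.23 in UH. Its UM and UH ranges overlapped, while the lowest UL library exceeded the highest UM and UH libraries. Its ratio of UL to UH means, 1.38, was the smallest among the 100. The second averaged 131 ± 18.2 FPKM (Ck), 161 ± 8.82 FPKM (UL), 122 ± 14.5 FPKM (UM) and 113 ± 11.9 FPKM (UH), each with its SD (n = 4).

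The longest was Cluster-9253.46046, with 18246 bases. It had 17.23, 29.01, 24.12 and 29.17 FPKM in Ck and 26.18, 29.9, 33.81 and 31.78 in UL, and then 22.52, 24.06, 17.55 and 23.99 in UM and 16.08, 16.24, 20.78 and 15.24 in UH. The UL libraries were again above all UM and UH libraries, and UM replicate 3 fell within the UH range. Cluster-9253.47445 (13842 bases) had 8.75 ± 3.59 FPKM (Ck), 10.2 ± 1.48 FPKM (UL), 7.78 ± 0.879 FPKM (UM) and 5.56 ± 0.472 FPKM (UH), each with its SD (n = 4). Its lowest UL library (8.3 FPKM) lay below its highest UM library (8.58 FPKM), so for this cluster UL and UM touched.

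The widest ranges over the 16 libraries belonged to Cluster-9253.47531 (6075 bases) and Cluster-9253.49869 (1890 bases), with 2.85 and 2.75 on the log2 scale. Cluster-9253.49869 had 9.01, 21.01, 15.37 and 19.47 FPKM in Ck and 24.7, 16.61, 21.97 and 23.22 in UL, and then 8.6, 7.97, 4.77 and 8.88 in UM and 2.83, 4.14, 3.86 and 5.41 in UH. Its UL mean was 5.33 times its UH mean, and its log2 difference between UH and UL was -2.17 ± 0.25 (SE from limma). Every UH library lay below every Ck and UL library, and UH replicate 4 lay above UM replicate 3.

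Cluster-9253.47531 departed from the common shape in the position of UM. It had 18.04, 56.78, 25.88 and 30.11 FPKM in Ck and 35.39, 37.07, 42.38 and 46.84 in UL, and then 13.06, 22.45, 7 and 18.81 in UM and 13.87, 19.03, 15.6 and 16.68 in UH. Its UM libraries spread on both sides of its UH libraries, and its mean was lowest in UM. The narrowest ranges were 0.47 on the log2 scale in Cluster-9253.51413 (12131 bases) and 0.55 in Cluster-9253.40077 (2336 bases). Cluster-9253.51413 averaged 5.41 ± 0.534 FPKM (Ck), 6.25 ± 0.0874 FPKM (UL), 5.2 ± 0.309 FPKM (UM) and 4.39 ± 0.117 FPKM (UH), each with its SD (n = 4). Its UL values (6.13 to 6.32 FPKM) and UH values (4.3 to 4.55 FPKM) varied by far less than the gap between them. Cluster-9253.40077 averaged 2.05 ± 0.453 FPKM (Ck), 2.45 ± 0.140 FPKM (UL), 1.74 ± 0.211 FPKM (UM) and 1.55 ± 0.10 FPKM (UH), each with its SD (n = 4).

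**Figure D1:**
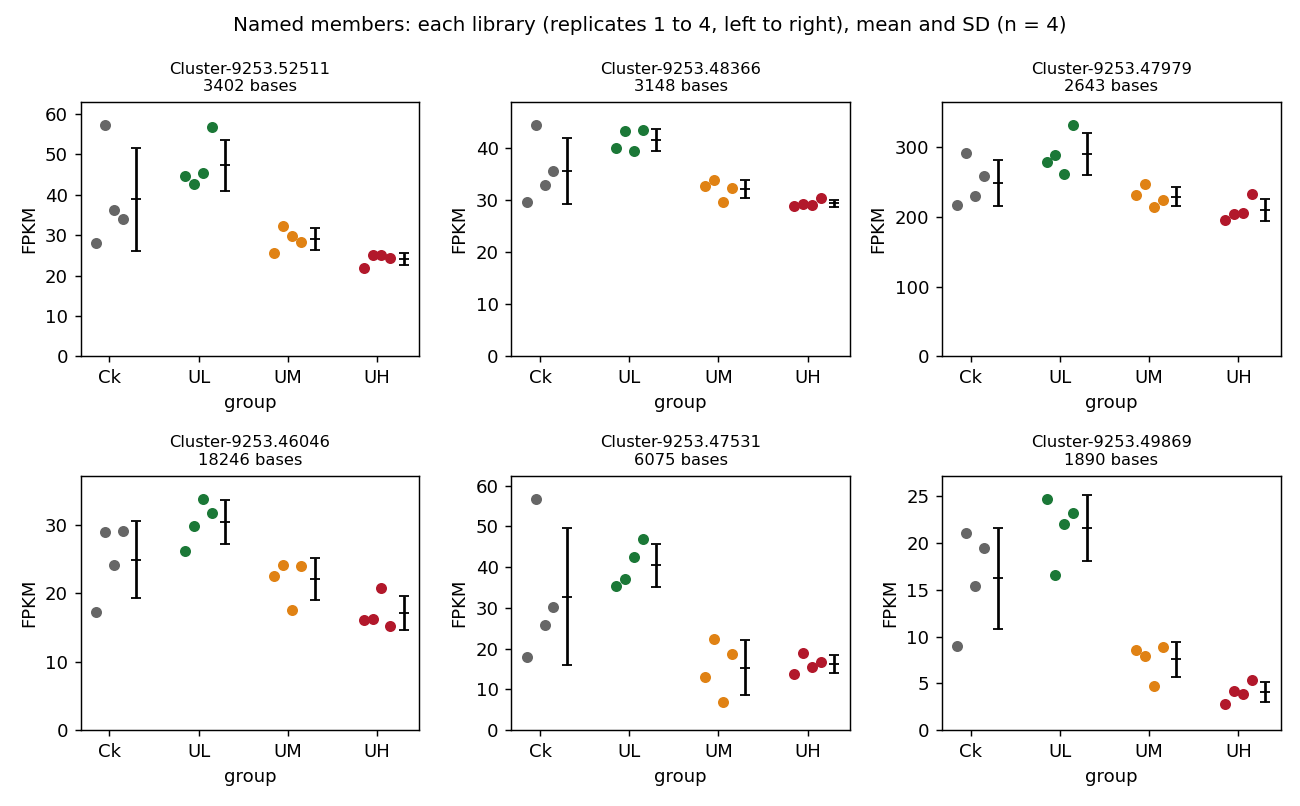
FPKM (vertical axes, from 0) of 6 named clusters by group; coloured points are libraries, and black bars are the mean and SD (n = 4). In each panel the UL points lie above the UH points, and the Ck bars are the widest; the vertical scales differ between panels.

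Across the 100, r ran from -0.966 to -0.878 with a median of -0.896, against a median of -0.26 over all tested clusters, of which 67.5% had a negative r. The limit of 100 was not a gap in the values. Cluster-9253.47876, the last inside, had r = -0.87757, and Cluster-9253.50469, the first outside, had r = -0.87742. Cluster-9253.47876 (2990 bases) averaged 45.2 ± 13.5 FPKM (Ck), 55.4 ± 9.08 FPKM (UL), 37.5 ± 5.23 FPKM (UM) and 25.5 ± 5.46 FPKM (UH); Cluster-9253.50469 (3091 bases) averaged 6 ± 1.33, 6.38 ± 0.993, 4.38 ± 0.392 and 3.67 ± 0.368 FPKM (SD, n = 4). In all, 797 tested clusters had r below -0.8.

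The group means stood in the same order in nearly all of the 100. The mean FPKM was highest in UL in 98 and lowest in UH in 99, and the full order UL, Ck, UM, UH from high to low held in 96, against 16.4% of all tested clusters. By means of log2(FPKM + 1) this order held in 97 as deposited (15.7% of all tested), in 57 after median ratio scaling (9.17%) and in 79 after quantile normalization (12.6%). The exceptions to the order by mean FPKM were Cluster-9253.48573 and Cluster-9253.46186, whose Ck means were slightly above UL (25.4 against 25.2 FPKM and 46.8 against 46.7 FPKM), Cluster-9253.50512, with 8.13 FPKM in UM against 7.98 in Ck, and Cluster-9253.47531. The first 3 of these were named after their values were seen.

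**Figure D2:**
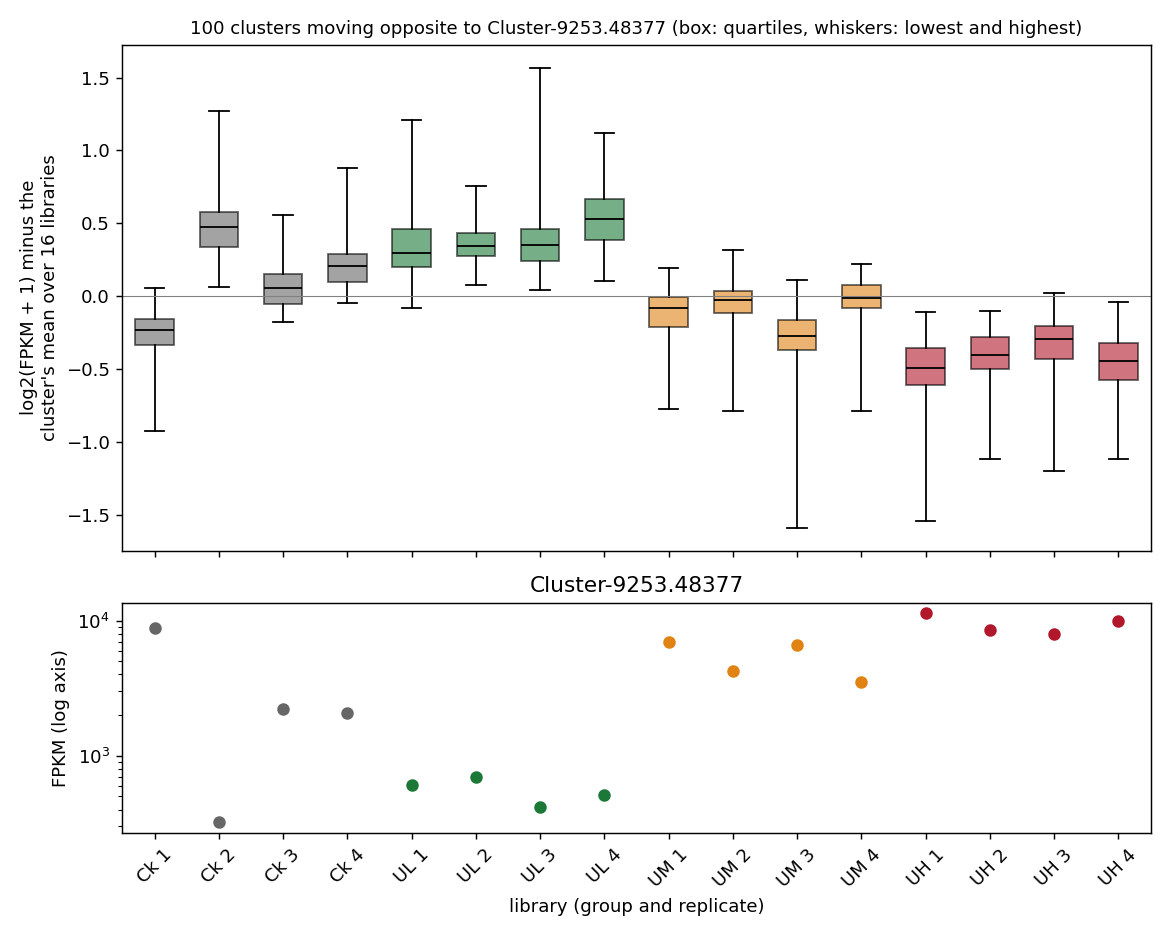
Upper panel: log2(FPKM + 1) of each of the 100 clusters minus its own mean over 16 libraries, as a box per library (line: median, box: quartiles, whiskers: lowest and highest); lower panel: FPKM of Cluster-9253.48377 on a log axis. The boxes are highest in UL and Ck replicate 2, where the reference cluster is lowest, and they are lowest in UH. The reference cluster is highest in UH and Ck replicate 1.

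The movements were modest in size next to those of the reference cluster. UL means exceeded UH means by a median ratio of 1.87, with 59 clusters between 1.5 and 2, 28 between 2 and 3, 5 at 3 or above and 8 below 1.5. Over all tested clusters the median ratio was 1.33. The slope against the reference ran from -0.46 to -0.08 log2 units per log2 unit of the reference, with a median of -0.18. Ratios were a little larger in clusters of low level: the median was 1.96 in the 20 clusters with a mean under 5 FPKM and 1.78 in the 33 clusters at 20 FPKM or more.

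The largest ratio belonged to Cluster-9253.78196 (346 bases) and is not given, since a single UH library, replicate 3, was above 0 (0.67 FPKM). It was listed at 0 in 7 libraries (Ck replicate 1, UM replicates 2, 3 and 4, and UH replicates 1, 2 and 4) and had at most 4.1 FPKM, worth few fragments on so short a sequence. It was the only one of the 100 with any value at 0, whereas 21.4% of all tested clusters had at least 1. After Cluster-9253.49869, the steepest were Cluster-9253.56287 (462 bases), with 34.6 ± 9.87 FPKM in UL and 9.17 ± 1.75 in UH, and Cluster-9253.72076 (488 bases), with 6.71 ± 2.43 and 1.92 ± 0.316 FPKM (SD, n = 4). These 3 were named after their values were seen.

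Within Ck the 100 clusters split the replicates as the reference cluster did, in reverse. Ck replicate 1, with the most of the reference cluster, was the lowest Ck library in 94 of them, and Ck replicate 2, with the least, was the highest in 90. Replicate 2 was above replicate 1 in all 100, with a median ratio of 1.70 and a range of 1.18 to 6.4 over the 99 that were above 0 in replicate 1. Of all tested clusters, 58.4% were higher in replicate 2. In 51 clusters Ck replicate 1 did not exceed the highest UH library, and in 91 Ck replicate 2 reached at least the lowest UL library. For the counts of 94, 90, 51 and 91 the share of all tested clusters was not computed. The same Ck values took part in choosing the clusters, so nothing is read from these counts.

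The median SD between replicates of a cluster, in log2 units, was 0.32 in Ck (0.33 over all tested clusters). It was 0.15 in UL, 0.16 in UM and 0.13 in UH, where all tested clusters had 0.32, 0.28 and 0.26. Ck was the most variable group in 95 of the 100 and in 31.1% of all tested clusters. The reference cluster also varied most in Ck, and r to it chose the 100, so nothing is read from this count. UM replicate 3 was the lowest UM library in 74 clusters, UL replicate 4 the highest UL library in 62 and UH replicate 3 the highest UH library in 57. For the counts of 74, 62 and 57 the share of all tested clusters was not computed. The median deviation of all tested clusters was likewise lowest within UM in replicate 3 (0.005 log2 units) and highest within UL in replicate 4 (0.19). Within UH it was lowest in replicate 3 (-0.19). The reference cluster was highest within UM in replicate 1 and lowest within UL in replicate 3. A low correlation requires little scatter about the reference, so the narrow spread in UL, UM and UH was in part set by the choice. The number of clusters listed above 0 was 97015 in Ck replicate 2 and 76712 to 78807 in UH, but it was 78686 in UL replicate 4, where the mean log2 level of the 100 was highest (4.22). The part of this number in the result was not tested.

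With group means removed, so that only differences between replicates of a group remained, r to the reference was negative in all 100 (median -0.72, range -0.94 to -0.53) and in 58.2% of all tested clusters (median -0.08). The Ck libraries weigh most in this value, since the SD of the reference cluster was 1.96 log2 units in Ck and 0.32, 0.47 and 0.22 in UL, UM and UH. It was computed from the libraries that chose the clusters.

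UH against UL asks how these groups, at opposite ends of the reference cluster, differ. The 4 UH values lay below the 4 UL values without overlap in all 100 clusters, as in 20.5% of all tested clusters. The median log2 difference was -0.79 (range -2.17 to -0.43), against -0.27 over all tested clusters. In limma, fitted to all 36003 clusters with Benjamini-Hochberg adjustment, all 100 passed an adjusted p of 0.05 as lower in UH, as did 19.9% of all tested clusters. The same libraries chose the clusters, so neither this count nor those that follow support the pattern.

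UM against UL gave a median log2 difference of -0.47 (range -1.53 to -0.23), against -0.07 over all tested clusters. The values did not overlap in 90 clusters, with UM lower, as in 5.31% of all tested. Of the 100, 19 passed in limma as lower in UM, against a background of 0.594%. That count moved with single libraries, as did the share of all tested clusters called as lower, given in brackets. None of the 100 passed without UL replicates 3 or 4 or UM replicates 1 or 3 (0.00833 to 0.0333%). The count was 1 without UL replicate 1 (0.0556%) or 2 (0.0833%) and 5 without UM replicate 2 (0.161%). Without Ck replicates 1 to 4 it was 37, 36, 10 and 9 (0.917, 0.972, 0.433 and 0.414%). Without UM replicate 4 it was 10 (0.356%). Without UH replicates 1 to 4 it was 7, 7, 8 and 11 (0.328, 0.308, 0.378 and 0.508%). In the 4 fits with no member called, all 100 clusters were still lower in UM, as were 52.6 to 61.9% of all tested. The 100 had median log2 differences of -0.50 to -0.42, and 70 to 85 of them had an unadjusted p under 0.05 in limma (14.1 to 19.6% of all tested). Over all tested clusters, 3 to 12 passed as lower in those fits, against 214 with all libraries.

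Against Ck, UH was lower in all 100 clusters, as in 65.1% of all tested. The median log2 difference was -0.54 (range -1.73 to -0.20), against -0.15 over all tested clusters. The values did not overlap in 49 clusters, against 13.4% of all tested. In limma 51 passed as lower in UH, against 7.86%. The count was 83 without Ck replicate 1 (8.2% of all tested) and 22 without Ck replicate 2 (5.29%), the libraries at the ends of the Ck spread, and 41 without both (4.53%). It was 33 and 18 without Ck replicates 3 and 4, and 16, 24 and 23 without UH replicates 1, 2 and 4, where 3.12 to 4.82% of all tested passed as lower. With only the 8 libraries compared in the model 2 passed, a share no higher than the 2.6% of all tested.

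UM and UL lay nearer to Ck. The median log2 difference of UM from Ck was -0.23, against 0.06 over all tested clusters. UM was lower in 98 of the 100 and in 41.8% of all tested. The values did not overlap in 3 clusters, with UM lower (2.73% of all tested). None of the 100 passed in limma (background 0.1% in either direction), and 18 had an unadjusted p under 0.05, as did 11.5% of all tested. UL was higher than Ck in log2 mean in all 100, by a median of 0.26, against 0.10 over all tested clusters. Of all tested clusters, 37.9% were lower in UL than in Ck. The values did not overlap in 8 clusters, with UL higher (3.51% of all tested). None passed (background 0.0167% in either direction), with 23 at an unadjusted p under 0.05 (16.8% of all tested). Without Ck replicate 2, 8 passed as higher in UL, as did 0.958% of all tested; clusters called in either direction then made up 5.93% of the table.

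UH against UM gave a median log2 difference of -0.31, against -0.19 over all tested clusters, and 77 of the 100 lay below that median. UH was lower in 99 clusters and in 71.2% of all tested. The values did not overlap in 41 of the 99, with UH lower, against 14.6% of all tested. None passed in limma (background 2.82% in either direction), and 39 had an unadjusted p under 0.05, as did 20.4% of all tested. With array weights 38 passed as lower in UH, where 11.8% of all tested did so.

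**Figure D3:**
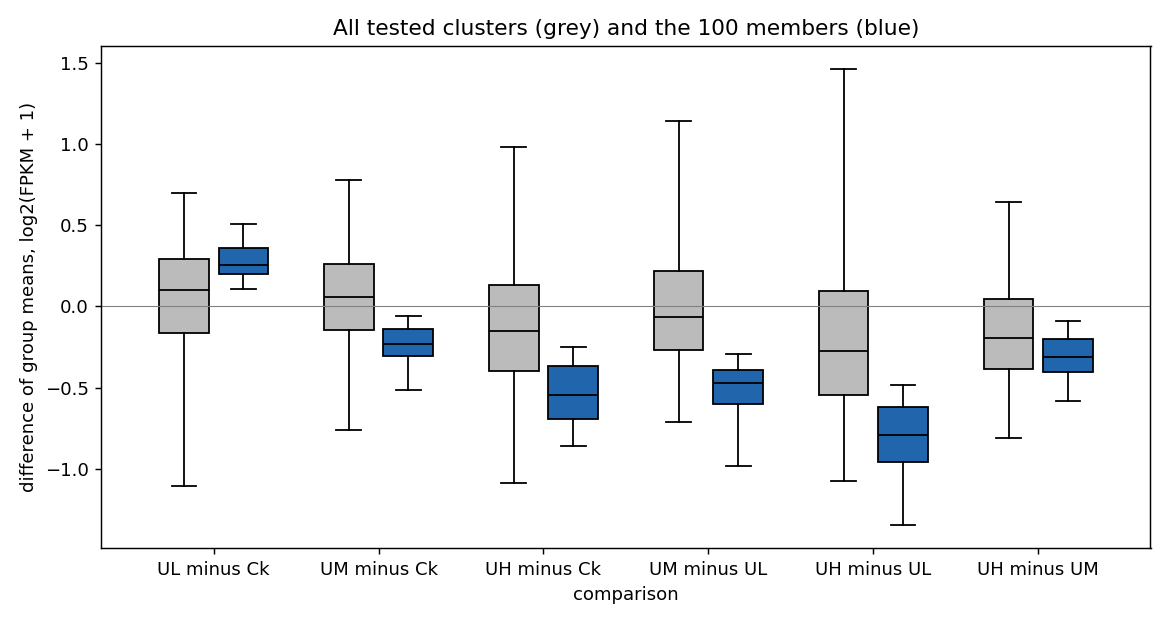
Difference of group means in log2(FPKM + 1) for the 6 comparisons, for all 36003 tested clusters (grey) and the 100 clusters (blue); boxes are quartiles with the median, whiskers the 5th and 95th percentiles. The blue medians run from 0.26 (UL minus Ck) to -0.79 (UH minus UL), and the grey medians from 0.10 to -0.27.

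The distance of UH from the other groups was also seen, at a smaller size, over the whole table. Median ratio scaling, which sets the typical cluster to the same level in every library, moved the median log2 difference between UH and UL over the tested clusters from -0.27 to -0.04 and that of the 100 clusters from -0.79 to -0.46. All 100 stayed lower in UH than in UL under this scaling and under quantile normalization (53.6 and 60.9% of all tested). In UM they stayed lower than in UL likewise (52.0 and 59.9% of all tested). Against Ck, 99 and 100 stayed lower in UH under these scalings (50.4 and 51.5% of all tested). UH was lower than UM in 61 of the 100 after median ratio scaling (median -0.04) and in 80 after quantile normalization, so for 38 and 19 clusters that direction turned. Of all tested clusters, 49.2 and 52.9% were lower in UH than in UM under these scalings. UL was below Ck in 7 after median ratio scaling (49.5% of all tested).

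Scaling also changed which clusters ranked lowest. Of the 100, 34 stayed among the 100 of lowest r after median ratio scaling and 48 after quantile normalization, and the median r of the 100 to the reference was -0.81 and -0.89 under these scalings, against -0.90 as deposited. The 100 clusters took between 0.181 and 0.431% of the FPKM sum of a library. The reference cluster took 0.0456 to 1.42%, and the 100 clusters with the highest r to it 0.132 to 2.48%.

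These 100 clusters were long. Their median length was 3662 bases, with quartiles of 1966 and 5948 and a range of 346 to 18246; all tested clusters had a median of 1227 bases. Of the 100, 34 exceeded 5000 bases, as did 6.99% of all tested, and 15 were under 1000 bases, as were 43.7% of all tested. The UL to UH ratio had a median of 2.40 in the 15 short clusters, 1.82 in the 51 of 1000 to 5000 bases and 1.78 in the 34 longer ones.

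**Figure D4:**
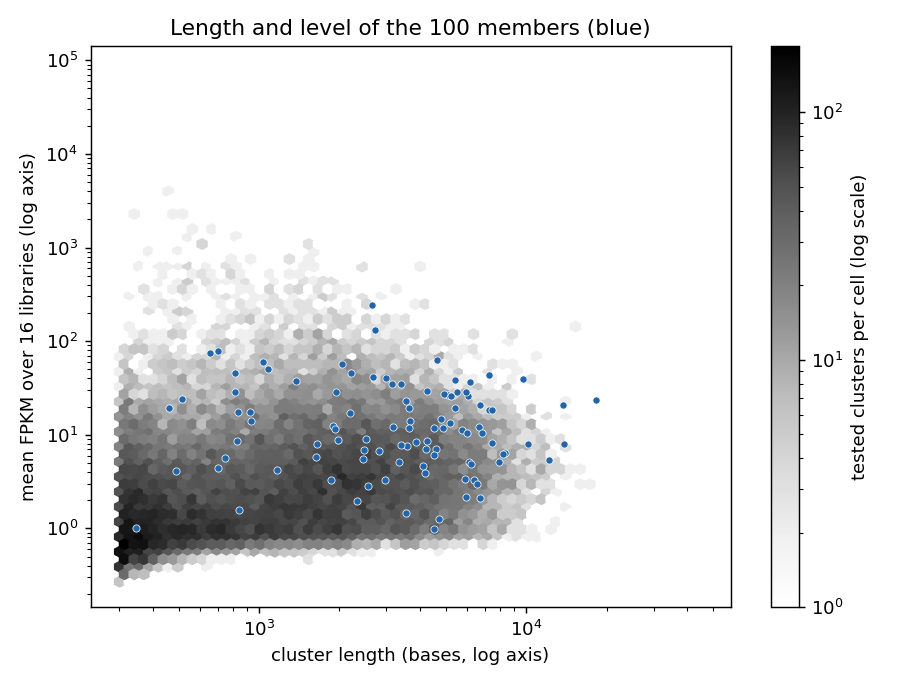
Cluster length in bases (horizontal) and mean FPKM over 16 libraries (vertical), both on log axes; grey cells count all tested clusters on a log scale and blue points are the 100 clusters. The blue points gather at the long side, with a median length of 3662 bases, and between 0.986 and 244 FPKM.

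They were of middle to high level as well. The median of their mean FPKM was 11.8 against 2.75 over all tested clusters. Of the 100, 55 were above 10 FPKM (18.3% of all tested) and 2 above 100 FPKM (2.17% of all tested). Length and level together set the number of fragments, estimated at a median of 655 per library for these clusters and 53.3 for all tested. Ranked by FPKM times length, 49 of the 100 were among the top 10% of tested clusters and 1 was among the lowest 25%. The median SD between replicates was 0.30 log2 units over all tested clusters of that top 10% and 0.55 over those of the lowest 25%. It did not fall steadily with this rank, and was lowest, at 0.25, in the band from 75 to 90%. The part of this scatter in the length and level of the 100 was not tested.

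The 100 clusters also varied together from library to library. Over their 4950 pairs, r across the 16 libraries ran from 0.67 to 0.99 with a median of 0.87. All were chosen by r to a single reference, which ties them to each other. The closest pair was Cluster-9253.44166 (701 bases, mean 78.7 FPKM) and Cluster-9253.37487 (814 bases, mean 28.4 FPKM), named after its values were seen. Cluster-9253.44166 had 48.98 to 64.91 FPKM in UH and 83.44 to 121.5 in UL, and Cluster-9253.37487 had 15.06 to 22.27 and 29.59 to 46.75. Related sequences can share fragments, and whether this pair does cannot be told without their sequences.

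The clusters with the highest r to the reference gave a larger mirror image. Their median log2 difference between UH and UL was 3.15, against -0.79 for the 100 low-r clusters, and between UM and UL 2.51 against -0.47. Their median length was 2044 bases, with 5 above 5000 bases. Their lowest r, 0.975, was farther from 0 than the most negative r in the table (-0.966). In whole spiders, fewer cells of a type and less RNA per cell cannot be told apart, for either set.

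Each library was also left out in turn, and the 100 clusters of lowest r were taken from the other 15. The left-out library was then compared with the mean of those 15. Its own values did not choose the clusters, but the other libraries of its group did, so this was no independent test. The median deviation of the chosen clusters was opposite in sign to that of the reference cluster in 14 of 16 libraries. The median of all tested clusters was opposite to the reference in 11 of the 16, all among those 14. The median of the chosen clusters was highest in UL replicate 4 (0.54 log2 units) and lowest in UH replicate 1 (-0.51). There the reference cluster deviated by -2.54 and 2.23. The exceptions were UM replicates 2 and 4, with medians of 0.00 and 0.03 where the reference cluster deviated by 0.73 and 0.44.

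Relative to the median of all tested clusters in the same left-out library, the chosen clusters were opposite to the reference in all 16 libraries, by at most 0.35 log2 units and by less than 0.01 in UM replicate 4. In the UH libraries 92 to 99 of 100 chosen clusters moved opposite to the reference, against 61.3 to 71.3% of all tested clusters. In the UL libraries the numbers were 67 to 96 of 100, against 38.1 to 63.9%. In UM they were 43 to 79 of 100, against 40.8 to 50.9%, and in UM replicate 4 the 43 lay below the 45.1% of all tested. Between 46 and 93 of the chosen clusters were among the 100 described here, the fewest without UL replicate 3 and, with 52, without Ck replicate 2.

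**Figure D5:**
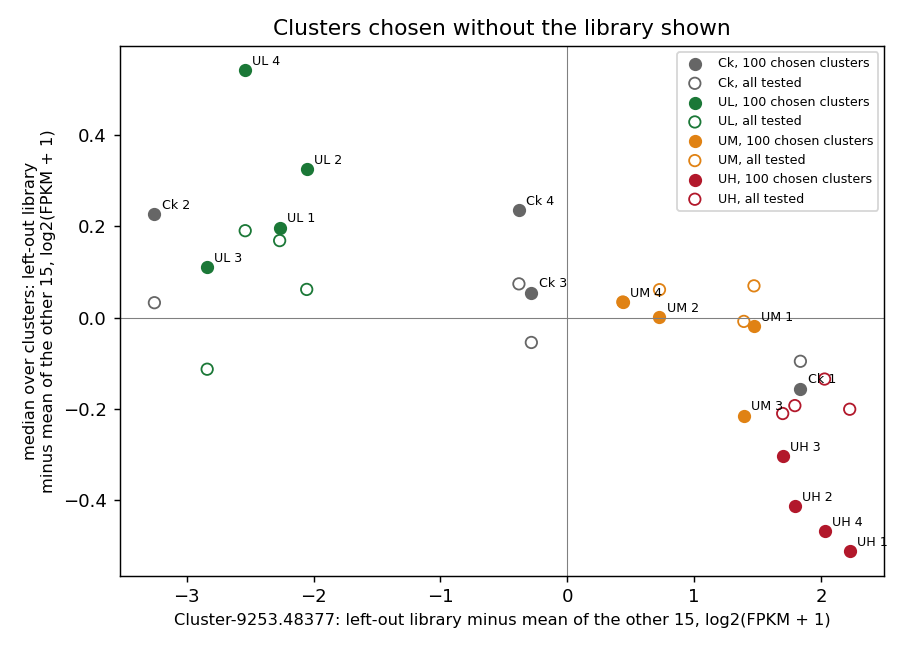
Deviation of each left-out library from the mean of the other 15 in log2(FPKM + 1): Cluster-9253.48377 (horizontal) and the median of the 100 clusters chosen without that library (filled points) or of all tested clusters (open points). Filled points fall from 0.54 in UL replicate 4 to -0.51 in UH replicate 1, and open points span a smaller range, from 0.19 to -0.21.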

How the data were processed

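The deposited table holds the authors' FPKM per sequence cluster, with 2 decimals, and a column headed as gene length. That heading gives no unit, and bases were assumed. Poly-A RNA was fragmented and copied with random primers for Illumina sequencing, per the labels' protocols. Which assembler, aligner and counter the authors ran is not given in the sources used here. A mouse genome build appears in the submitters' processing notes and does not match the organism. Depth, estimated from the step between low FPKM values in clusters of 600 to 900 bases, was 16.7 to 21 M (mega) fragments per library; 99.4 to 99.6% of the low values came out whole within 0.1 of a fragment. These are estimates, so no count model was used.

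Clusters that reached 1 FPKM or more in 4 or more libraries were kept, and values entered as log2(FPKM + 1); a log2 difference understates the change of low values. All 16 libraries and 4 groups entered a single trended limma fit (version 3.58.1, in R 4.3.3) with 12 residual degrees of freedom; p-values were two-sided and Benjamini-Hochberg adjusted over all tested clusters. The script was tested on simulated data. The 6 comparisons share libraries, so their counts are related. The members, the comparisons and the alternatives were chosen with earlier results of these data known. The text names the reference, the 4 clusters of lowest r, the 2 most abundant, 2 longest, 2 widest and 2 narrowest in range, ranks 100 and 101, and others marked as chosen after their values were seen. Groups and replicate numbers come from the sample titles. Lists of genes by function or cell type could not be matched, since the table names no gene.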

Additional observations from a re-analysis of the deposited data

Results flagged for a closer look

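In 64 groups of 4 values (15 named clusters and the mean level of the 100, in each group), 2 had a library far from the other 3 by Dixon's test; chance flags about 1 in 20 groups. Cluster-9253.48282 had 38.43 FPKM in UL replicate 4, where the other UL libraries had 30.56 to 31.42. Cluster-9253.40077 had 2.24 FPKM in UL replicate 2, where the others had 2.49 to 2.53.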

How the results depend on the processing

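Of the 100 clusters, the number still among the 100 of lowest r was 34 after median ratio scaling, 48 after quantile normalization, 44 with Spearman's rho, 19 with group means removed, 33, 18 and 43 without the groups Ck, UL and UM, and 40 without Ck replicates 1 and 2 together, an alternative chosen after seeing the data; with single libraries left out it was 46 to 93. Their median r was -0.81 after median ratio scaling, -0.72 with group means removed, and -0.86, -0.92 and -0.87 without the groups UL, UM and UH; it stayed within -0.91 to -0.89 with single libraries left out. Beside each count of the 100 called as lower in the first group stands the share of all tested clusters so called in the same fit. Between UH and Ck the 100 gave 14 with no filter on low values (0.735%), 22 after median ratio scaling (4.47%), 21 after quantile normalization (4.1%), 79 with array weights (13.2%), 2 in a fit of the compared groups alone (2.6%), and 16 to 83 with single libraries left out (3.12 to 8.95%). Between UM and UL they numbered 0 with no filter (0.00956%; 93 at an unadjusted p under 0.05, against 9.21%), 35 with array weights (1.44%), 47 without Ck replicates 1 and 2 together (1.07%), and 0 to 37 with single libraries left out (0.00833 to 0.972%). Between UH and UL they numbered 48 after median ratio scaling (6.52%) and 96 to 100 with single libraries left out (14.0 to 24.3%). Between UH and UM they numbered 1 with a pseudocount of 0.1 (3.45%), 38 with array weights (11.8%), 5 in a fit of the groups alone (3.49%), 6 without Ck replicates 1 and 2 together (2.88%), and 0 to 3 with single libraries left out (0.922 to 3.61%). Between UL and Ck those called as higher in UL numbered 0 to 8 (0 to 0.958%), and between UM and Ck 0, with single libraries left out. The causes were not tested. For the clusters named by rule, only the comparison with the largest log2 difference was followed. This was UM against UL for Cluster-9253.47531 and UH against UL for the others. None of these differences changed sign under any alternative, and 25 of 375 values no longer passed. Other comparisons could turn: without UM replicate 3, UH was lower than UM in all 100 (70.6% of all tested), Cluster-9253.47531 included.

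No clear pairing of the libraries by replicate number was seen. The correlation of same-numbered deviations ran from -0.28 to 0.26, and was over 0.1 in 5 of 24 pairs. It was higher than with any other number in 7 of the 24. A pairing in part of the clusters is not excluded by these values. With the replicate number as a block, 45 members were called between UH and Ck (6.7%), 16 between UM and UL (0.472%) and 100 between UH and UL (18.8%). Depth limits short clusters of low level most: 1 fragment on 500 bases is worth 0.207 to 0.258 FPKM.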
